A study of Mus musculus with 48 samples.

Results

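The genes described here are the antioxidant defence genes that the transcription factor Nrf2 controls, with Nrf2 itself (gene Nfe2l2), its inhibitor Keap1 and the catalases, dismutases and peroxidases that work beside them. Of 37 genes named, 32 had a probe with their symbol on the array, and 30 had a probe with a detection p under 0.01 on at least 6 of 48 arrays, out of 9869 genes that met the same limit. Each gene was represented by its probe of highest mean. Prdx5, Prdx6, G6pdx, Me1 and Gpx4 had no probe carrying their symbol, and the probes of Txn1 and Pgd did not meet the limit.

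The arrays measured RNA of cortical neurons cultured from mice of the outbred CD-1 stock. The cultures grew for 7 days in medium with B-27, a supplement that itself contains antioxidants, were given a compound for 1 h and NMDA, the agonist that kills neurons through calcium entry at its receptor, for 1 h, and recovered for 16 h with the compound present. All 48 arrays, the controls included, received NMDA, and the labels state no doses. There were 5 mock controls in water, 5 vehicle controls in DMSO and 38 arrays of 36 compounds, 1 array each apart from the pair for Z-VAD-FMK and the pair labelled MitoPBN and MitoPBN2, and the labels do not say that arrays came from separate cultures, so p-values measure a spread that may be technical.

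The groups used were these. The 4 compounds labelled NMDAR antagonist were MK-801 and riluzole, in DMSO, and memantine and ifenprodil, in water. All 4 belong to the protective class of 14 compounds. The labels give that class protection ratios of 1.4 to 2.76. The non-protective class held 6 compounds with ratios of 0.61 to 0.98 and the 10 controls, and 18 arrays belonged to neither class. The antioxidant drugs were 5 compounds on 6 arrays. Citicoline and MitoPBN are labelled free radical scavenger. Resveratrol and ethyl ferulate (labelled enzyme inhibitor) and decyclubiquinone (labelled anti-apoptotic) were added because they are known antioxidants. Citicoline was in water, ethyl ferulate in ethanol, and MitoPBN, resveratrol and decyclubiquinone in DMSO.

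In unstressed cells Keap1 holds Nrf2 for degradation. Oxidants and reactive drugs modify cysteines of Keap1, Nrf2 then accumulates, and it binds antioxidant response elements upstream of genes for glutathione synthesis, thioredoxin recycling, quinone reduction and heme breakdown. In brain cultures this response is known to be stronger in astrocytes than in neurons, so the cells present matter for reading these genes.

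The cultures held the markers of several cell types. Of the marker lists, 18 of 19 neuron markers, 13 of 15 astrocyte markers, 8 of 13 microglia markers and 8 of 10 oligodendrocyte lineage markers were measured, and 0 of 6 erythroid markers. Markers of glia were thus measured beside those of the labelled neurons. In such bulk RNA, fewer cells of a type and less RNA per cell cannot be told apart. The median signal of an array ranged from 36.1 to 124 and the share of its probes detected from 26.3% to 39%. The clofibric acid array stood apart with a median correlation of 0.908 with the others, against up to 0.967.

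An antioxidant response element has the core TGACNNNGC or TGAGNNNGC. In the 250 bases before the start of 31 genes with an entry in the RefSeq promoter table (GRCm38.p6), 14 held such a core on either strand, or 45.2%, against 25.7% of 27025 genes. The stricter form TGACTCAGC or TGAGTCAGC, whose first letters are also an AP-1 site (TGACTCA or TGAGTCA), was found in 4 of them (12.9%), against 0.796% of all genes. These were Srxn1, Osgin1, Prdx1 and Gstp1. The windows of Srxn1 (plus strand, chr2:152105274-152105523), Osgin1 (plus strand, chr8:119436897-119437146) and Prdx1 (plus strand, chr4:116685349-116685598) are shown, because Srxn1 and Osgin1 were among the most variable of the 30 genes and Prdx1 among the steadier. Capitals mark the core, read from either strand.
Srxn1: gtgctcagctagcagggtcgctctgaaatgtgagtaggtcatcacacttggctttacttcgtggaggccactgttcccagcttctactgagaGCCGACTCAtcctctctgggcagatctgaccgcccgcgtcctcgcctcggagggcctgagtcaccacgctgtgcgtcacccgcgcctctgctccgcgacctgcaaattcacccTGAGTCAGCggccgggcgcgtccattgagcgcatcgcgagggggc
Osgin1: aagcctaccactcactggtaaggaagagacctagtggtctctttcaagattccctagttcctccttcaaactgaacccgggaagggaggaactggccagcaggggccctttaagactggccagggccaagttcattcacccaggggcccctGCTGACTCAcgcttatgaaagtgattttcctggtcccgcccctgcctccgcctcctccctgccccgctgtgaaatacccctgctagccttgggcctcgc
Prdx1: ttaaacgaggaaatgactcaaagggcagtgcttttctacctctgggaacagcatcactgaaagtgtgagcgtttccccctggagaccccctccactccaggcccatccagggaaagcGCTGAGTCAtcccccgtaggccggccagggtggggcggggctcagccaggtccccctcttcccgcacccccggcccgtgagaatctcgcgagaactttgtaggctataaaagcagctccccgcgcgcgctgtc
Srxn1 holds 2 cores, of which only the one nearer the start has the stricter form, and Osgin1 and Prdx1 hold 1 each on the minus strand. Over the compound arrays Srxn1 spanned 3.68 log2 units and Osgin1 2.26, while Prdx1 spanned 0.87. A core in the window thus went with both wide and narrow ranges. A match is a match of letters and was not tested for binding.

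The controls set the baseline. Values are log2 normalised intensities, and they compare 1 gene between arrays, not genes with each other. The SD over the 10 controls had a median of 0.216 over the 30 genes. It was smallest for Gpx1, a glutathione peroxidase that clears hydrogen peroxide, at 0.0814, and largest for Gsta3, a glutathione S-transferase, at 0.805. Of the 30 genes, 24 were detected on all 48 arrays. Catalase (Cat, 8 arrays), the catalytic subunit of glutamate-cysteine ligase (Gclc, 10 arrays) and the exporter Abcc1 (6 arrays) were near background, and their values are read with that limit.

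A difference between chips ran through several of these genes. The 48 arrays lie 6 on each of 8 chips, and on chips 6 to 8 (18 arrays) 52.8% of the 17815 probes tested differed from chips 1 to 5 (30 arrays) in a limma fit chosen after the data were seen, with 33.5% higher and 19.3% lower. Of the 30 genes, 8 were higher and 11 lower by that test. Gsr, glutathione reductase, which restores glutathione from its oxidised form, ranged from 6.93 to 8.06 on chips 6 to 8 (median 7.37) and from 8.07 to 9.24 on chips 1 to 5 (median 8.84). The ranges did not overlap, as was so for 3.89% of probes in either direction, and the difference was -1.42 (limma adjusted p = 4.11e-21). Txnrd1, the cytosolic thioredoxin reductase, was lower by the same fit (-1.15, adjusted p = 2.48e-14) and Keap1 was higher (0.31, adjusted p = 4.89e-08). Srxn1, sulfiredoxin, which repairs peroxiredoxins, did not pass (0.30, adjusted p = 0.159).

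**Figure D1:**
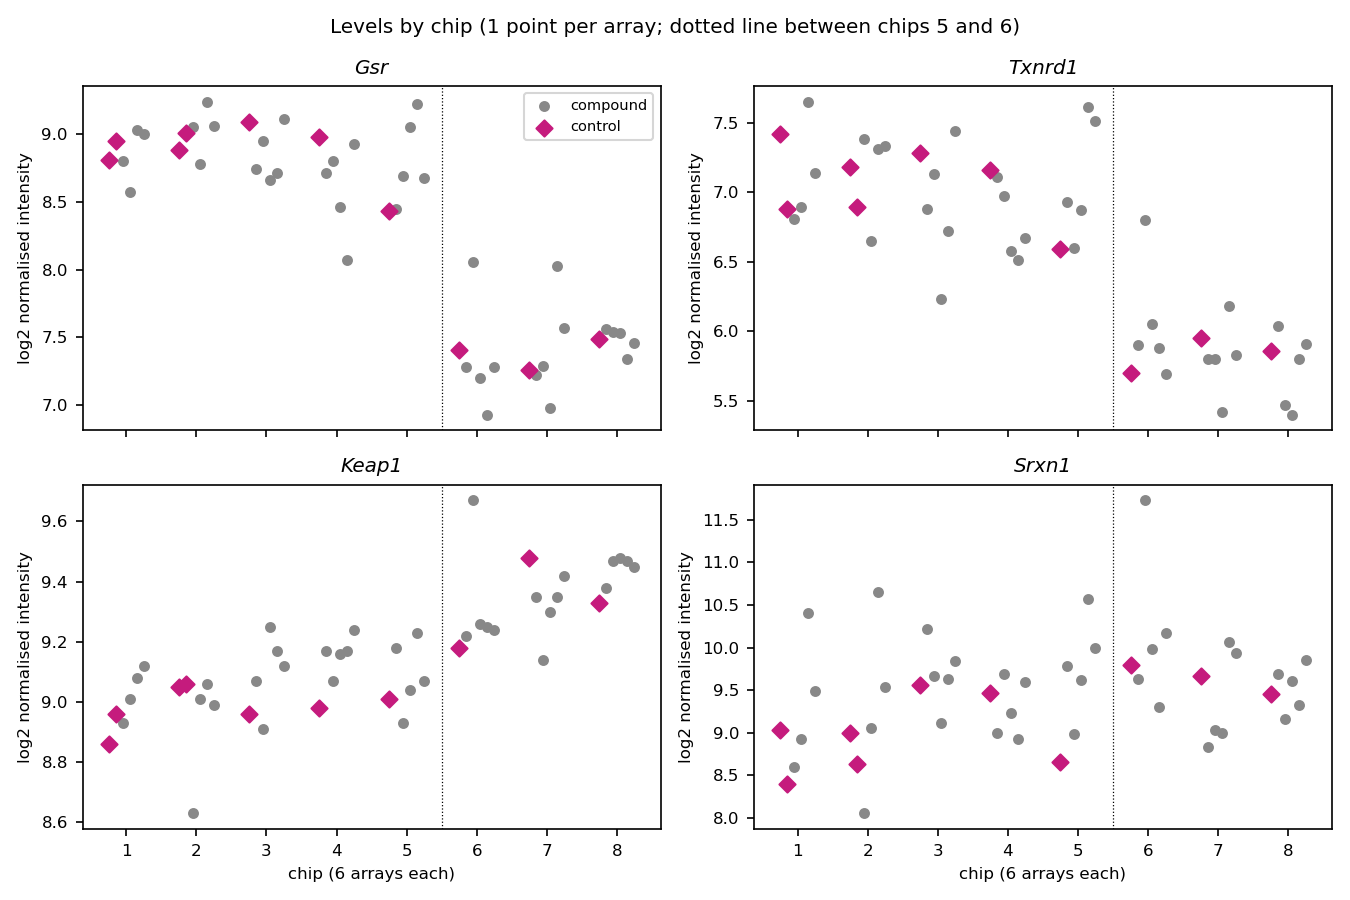
Log2 normalised intensity (vertical axis) of Gsr, Txnrd1, Keap1 and Srxn1 on the arrays of each chip (horizontal axis), 1 point per array, with controls as diamonds. Every Gsr value on chips 6 to 8 (at most 8.06) lies below every value on chips 1 to 5 (at least 8.07), for controls and compounds alike.

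The 5 mock controls were on chips 1 to 5, and of the 5 vehicle controls 2 were on chips 1 to 5 and 3 on chips 6 to 8. Gsr read 8.81, 8.88, 9.09, 8.98 and 8.43 on the mock controls. The vehicle controls on chips 6 to 8 read 7.41, 7.26 and 7.49, and those on chips 1 to 5 read 8.95 and 9.01, within the range of the mock controls. Vehicle against mock called 0 of the 30 genes and 0% of probes by limma, with 6 of 30 genes and 20% of probes at an unadjusted p under 0.05. For Txnrd1 the difference was -0.87 (SE 0.257, limma adjusted p = 0.180), and -0.24 with the chip set as a term (adjusted p = 0.675). With chip as a block, 4 genes passed, all lower with vehicle (Txnrd1 at -0.42, Srxn1 at -0.50, Nqo1 at -0.47 and Gstm1 at -0.29), among 26% of probes. This fit compares the pair on chip 1 and the pair on chip 2 only, and takes its spread from those pairs alone. In both pairs the mock control was at position A and the vehicle control at position B, so solvent and position cannot be told apart. Without vehicle control 5, Txnrd1 (-1.03) and Gclc passed among 812 probes.

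The NMDAR antagonists went with less Nfe2l2 and less Gpx1 than in the controls, and so did some compounds of other labels. Of all 38 compound arrays, 11 lay below every control for Nfe2l2 and 17 for Gpx1. Nfe2l2 read 7.01 with nimodipine and 7.04 with mifepristone, and Gpx1 read 11.27 with clofibric acid and 11.46 with nimodipine. Nfe2l2, which encodes Nrf2, read 6.76 with ifenprodil, 7.38 with MK-801, 7.50 with riluzole and 7.19 with memantine, against 7.49 to 8.54 (median 8.02) in the controls. Only the riluzole array reached into the control range, at its lower end. The difference was -0.80 (SE 0.171, 4 against 10, limma adjusted p = 0.00423), a level lower by 1.74-fold. It was negative on each of the 3 chips that hold both groups, at -1.43 on chip 3, -0.47 on chip 4 and -0.54 on chip 7, and it passed with chip as a block (-0.78, adjusted p = 0.0190).

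Gpx1 read 11.65 with ifenprodil, 11.58 with MK-801, 11.66 with riluzole and 11.98 with memantine, against 11.95 to 12.23 (median 12.14) in the controls. The 3 antagonist arrays on chips 1 to 5 lay below every control, and memantine, on chip 7, lay above 1 of them. The difference was -0.40 (SE 0.0917, adjusted p = 0.00597). On chip 7 it was 0.02, and with chip as a block it was -0.35 and did not pass (adjusted p = 0.0821). Against the 5 vehicle controls alone neither gene passed, with Nfe2l2 at -0.66 (adjusted p = 0.0541) and Gpx1 at -0.40 (adjusted p = 0.0674).

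These were the 2 of 30 genes called lower, or 6.67%, where 11.3% of all probes were called lower. No gene of the 30 was called higher, where 12.2% of probes were (23.5% in either direction), and 4 of 30 had an unadjusted p under 0.05. The members' median difference was -0.12, beside -0.05 over all probes. Among genes that Nrf2 induces, Txnrd1 differed by -0.49, Srxn1 by -0.01, Osgin1 by 0.19, Hmox1, the heme oxygenase that yields biliverdin, by -0.20 and Nqo1, the quinone reductase, by -0.37, and none of them passed. Gstm1, a glutathione S-transferase that astrocytes express, was at -0.43 (adjusted p = 0.0561), and its second probe, detected on 31 arrays, passed (-0.76, adjusted p = 0.0149). The probes of Tkt, transketolase, disagreed, with 0.06 for the one used and 0.51 (adjusted p = 0.0157) for the other.

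How many genes passed depended on how the chips were treated. With chip as a block 6 genes passed, all lower, or 20% of 30, where 8.96% of probes were called lower and 19.4% in all. Beside Nfe2l2 and Gstm1 (-0.55, adjusted p = 0.0199) these were Gclc, Txnrd1, Nqo1 (-0.79) and Blvrb (-0.59), a biliverdin reductase. With the chip set as a term, an alternative chosen after seeing the data, 6 passed as well, all lower, where 17.9% of probes were called lower and 33.6% in all. These were Nfe2l2, Gpx1, Gstm1, Gclc, Txnrd1 and Sod2, the mitochondrial superoxide dismutase. No antagonist shares a position on its chip with a control, so position could not be fitted here.

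Of 75 other genes of glutathione, thioredoxin and quinone metabolism, 58 were measured, and 5 rose and 8 fell with the antagonists, with a median of -0.17. These counts stand near the shares over all probes of 12.2% higher and 11.3% lower. Ggt7, a gamma-glutamyltransferase family member, rose by 0.88 (adjusted p = 0.00305). Gpx8, a peroxidase of the endoplasmic reticulum, fell by 0.69 (adjusted p = 0.00397), the carbonyl reductase gene Cbr3 fell by 0.48 (adjusted p = 0.00586) and Txnip, whose protein binds and inhibits thioredoxin, fell by 0.80 (adjusted p = 0.0116).

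Markers of cell types moved with the same arrays. Of the 18 neuron markers measured, 17 rose with the antagonists (median 1.48), all 7 markers of dividing cells fell (median -1.15) and 2 of 13 astrocyte markers fell (median -0.17). Each marker was set against its mean over the 10 controls. The mean neuron marker level of an array then ran from 1.08 to 1.73 with the antagonists and from -0.43 to 1.02 in the controls. For astrocyte markers it ran from -0.26 to -0.08 and from -0.26 to 0.34, and for microglia markers from -0.63 to 0.09 and from -1.25 to 0.61. For dividing cell markers it ran from -1.49 to -0.41 and from -0.79 to 0.43, with memantine (-0.41) within the controls. The part of these markers in the change of Nfe2l2 and Gpx1 was not tested.

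**Figure D2:**
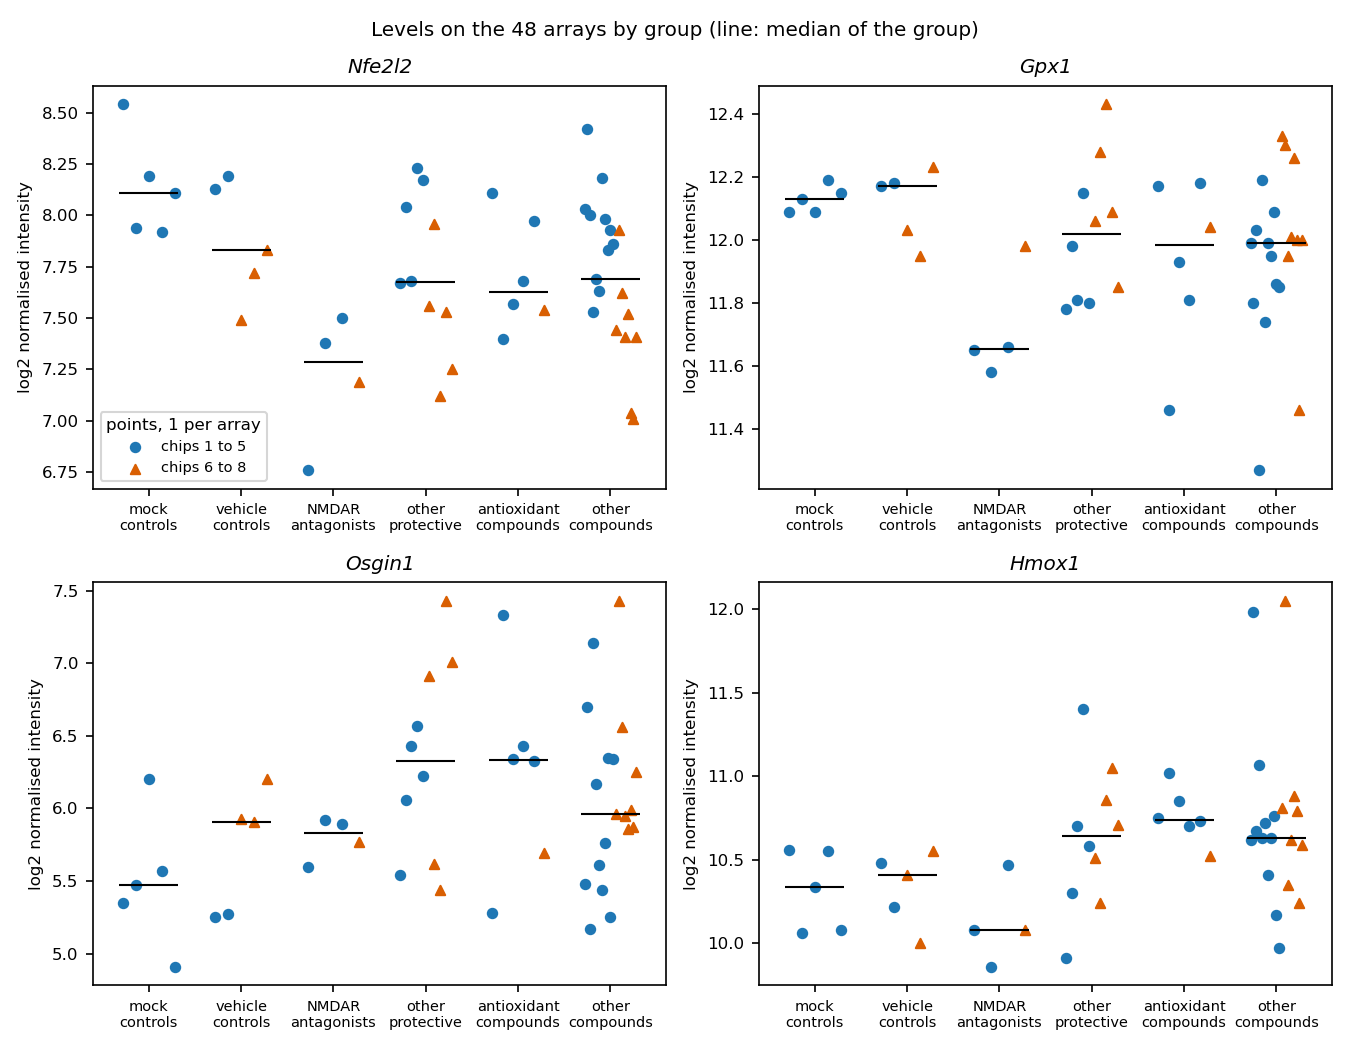
Log2 normalised intensity (vertical axis) of Nfe2l2, Gpx1, Osgin1 and Hmox1 on each array by group (horizontal axis), with the group's median as a line. The resveratrol array is drawn under both other protective and antioxidant compounds. The 4 antagonists have a median of 7.29 for Nfe2l2 against 8.02 over the 10 controls, and 5 of 6 antioxidant arrays lie above every control for Hmox1.

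The antagonists were also set against the 10 other protective compounds, which asks whether protection by different mechanisms leaves different levels. By limma 0 of the 30 genes passed, where 3.69% of probes did (3.34% higher and 0.348% lower). Of the 30, 9 had an unadjusted p under 0.05, all lower, where 16.6% of probes had such a p in either direction. In all, 24 of 30 differences were negative, with a median of -0.20, beside -0.05 over all probes. The share of all probes with a negative difference was not counted. Nfe2l2 was at -0.51 and did not pass. These antagonist arrays are the ones compared with the controls above.

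Nqo1 came nearest. It read 6.24 with ifenprodil, 6.25 with MK-801, 6.31 with riluzole and 6.47 with memantine, against 6.23 to 7.23 (median 6.92) with the other protective compounds. All 4 lay in the lower part of that range. The difference was -0.54 (SE 0.148, adjusted p = 0.0546), with -0.51 on each of chips 3 and 7, which hold both kinds of compound, and it passed with the chip set as a term (-0.47, adjusted p = 0.0357). Gclm, the regulatory subunit that raises the activity of Gclc, was at -0.39 (adjusted p = 0.130), Gsta4, which conjugates the lipid aldehyde 4-hydroxynonenal, at -0.40 (adjusted p = 0.124) and the exporter Abcc4 at -0.38 (adjusted p = 0.131). With antagonists, other protective compounds and controls in 1 fit, Gsta4 and Abcc4 passed among 1041 probes.

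Osgin1, a stress-inducible gene that restrains growth, was higher in the protective than in the non-protective class. It ran from 5.44 to 7.43 (median 5.99) over 14 protective arrays and from 4.91 to 6.20 (median 5.52) over 16 non-protective ones, so the ranges overlapped. Of the protective arrays, the highest were necrostatin-1 at 7.43, carbenoxolone at 7.01 and liothyronine at 6.91. The difference was 0.58 (SE 0.174, limma adjusted p = 0.0409), a level higher by 1.49-fold. It was the 1 gene of 30 called (3.33%), where 7.65% of probes were called, 4.24% higher and 3.41% lower. The members' median was 0.02, beside -0.01 over all probes.

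Within chips Osgin1 was higher in the protective class on 7 of 7 chips that hold both, by 0.12 to 1.49. It passed with the chip set as a term (0.53, adjusted p = 0.0329) and did not pass with chip as a block (0.46, adjusted p = 0.113), under median scaling (0.41, adjusted p = 0.125), with no detection filter (0.58, adjusted p = 0.0972), with position as a covariate (0.62, adjusted p = 0.382) or without the 4 antagonists (0.73, adjusted p = 0.171). Osgin1 was detected on 41 of 48 arrays. Nfe2l2 was at -0.36 (adjusted p = 0.0738), Srxn1 at 0.35 (adjusted p = 0.199), Gsta3 at 0.54 (adjusted p = 0.214) and Hmox1 at 0.04 (adjusted p = 0.867). Of the 58 other pathway genes 1 passed, Ggt7, which rose by 0.43 (adjusted p = 0.0415). Of the neuron markers 7 of 18 rose (median 0.60), dividing cell markers had a median of -0.60 with 0 of 7 called, and the part of cell makeup was not tested.

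Over the 36 compounds no slope on the log2 protection ratio passed, for 0 of 30 genes and 0% of probes by limma. At an unadjusted p under 0.05 there was 1 of 30 genes, Sod1, the cytosolic superoxide dismutase (0.18 per doubling of the ratio, SE 0.0837, adjusted p = 0.848), beside 5.33% of probes. The slopes were 0.35 for Osgin1 (SE 0.238), 0.34 for Srxn1 (SE 0.260) and -0.03 for Hmox1 (SE 0.195).

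**Figure D3:**
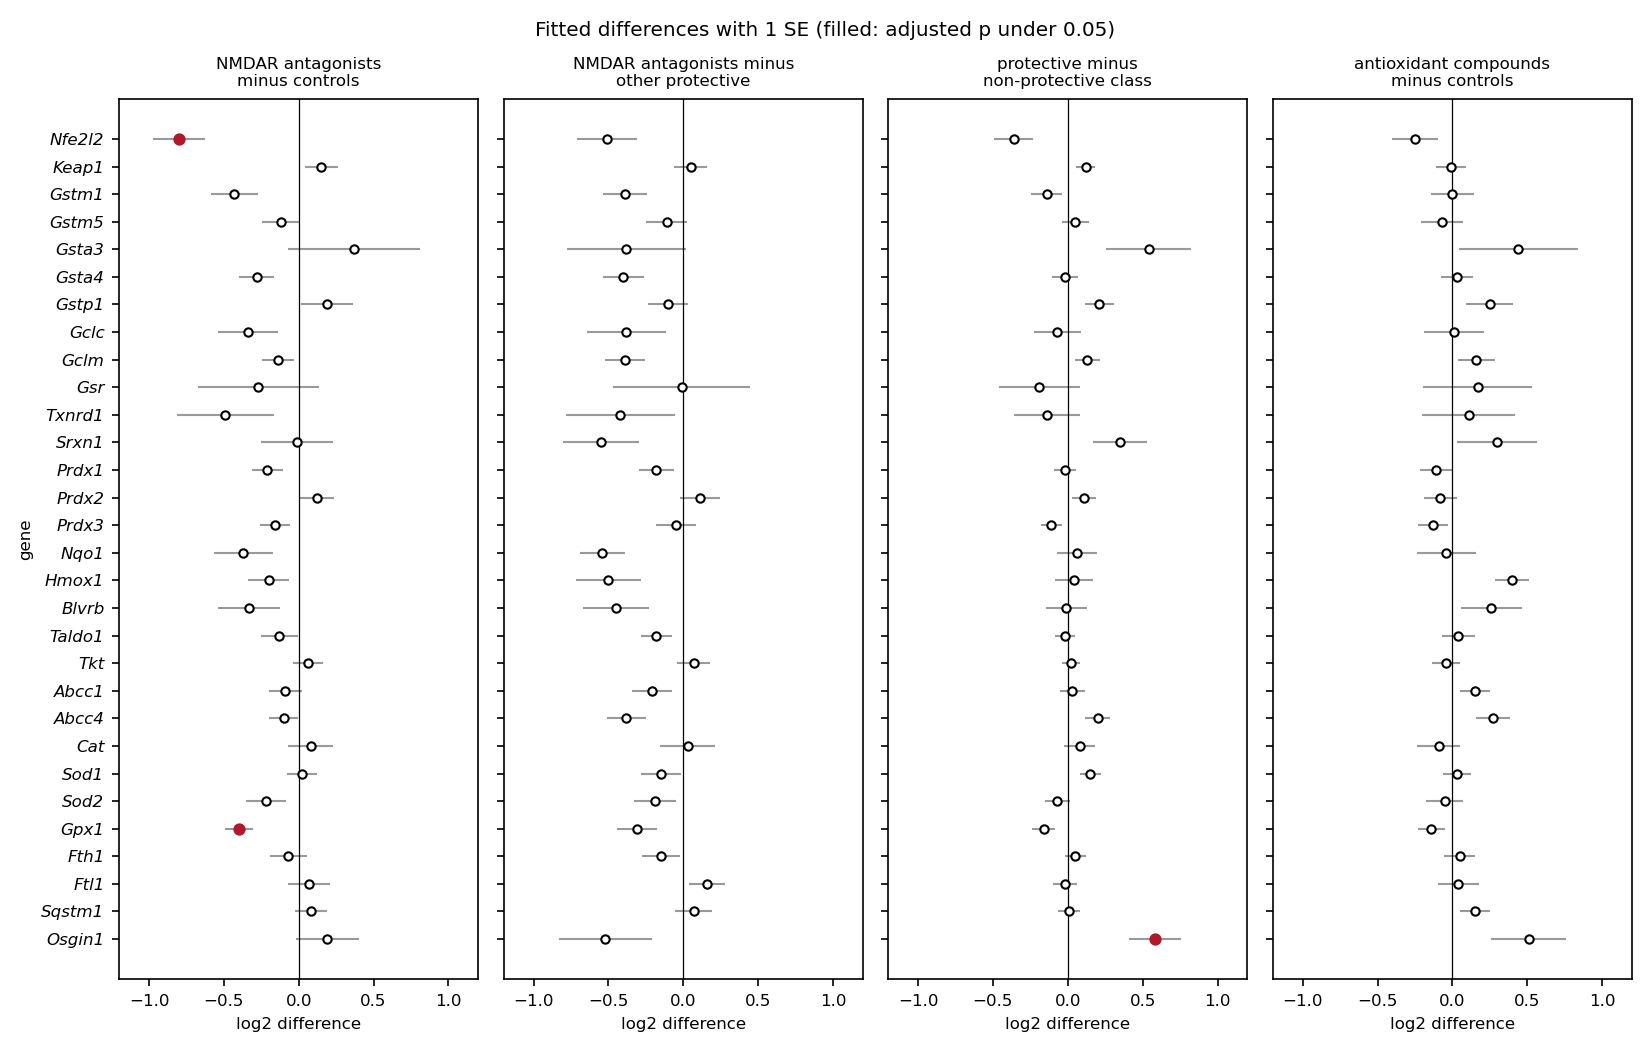
Fitted log2 difference (horizontal axis) of each of the 30 genes (vertical axis) with 1 SE in 4 comparisons, which share arrays. Filled points passed an adjusted p of 0.05, and these are Nfe2l2 (-0.80) and Gpx1 (-0.40) for the antagonists against controls and Osgin1 (0.58) for the protective against the non-protective class.

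The antioxidant drugs were compared with the controls as a group, and no gene of the 30 passed. By limma 0 were called, where 0.359% of probes did (0.269% higher and 0.0898% lower), and 2 of 30 had an unadjusted p under 0.05, both higher, beside 17.6% of probes. The members' median was 0.04, beside 0.00 over all probes. Neuron markers had a median of 0.60 in this comparison, with 0 of 18 called, and dividing cell markers one of -0.75, with 0 of 7 called.

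Hmox1 came nearest. It read 10.75 with citicoline, 11.02 and 10.85 with the MitoPBN pair, 10.70 with resveratrol, 10.73 with decyclubiquinone and 10.52 with ethyl ferulate, against 10 to 10.56 (median 10.38) in the controls. All arrays but that of ethyl ferulate lay above every control. With the MitoPBN arrays averaged the difference was 0.40 (SE 0.115, 5 against 10, adjusted p = 0.114). It was positive on all 5 chips that hold both groups, by 0.18 to 0.88. No antioxidant array shares a position on its chip with a control, so position could not be fitted and cannot be told apart from group. Hmox1 did not pass with the chip set as a term (0.39, limma adjusted p = 0.0553). Nor did it with chip as a block and MitoPBN given by its first array (0.45, adjusted p = 0.0544) or its second (0.34, adjusted p = 0.0624). It passed where the MitoPBN arrays were counted as separate samples, with no chip term (0.44, adjusted p = 0.0418, among 662 probes), with chip as a block (0.46, adjusted p = 0.0268) and with the chip set as a term (0.42, adjusted p = 0.0217). All 3 fits that called it thus count 1 compound as 2 samples.

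Hmox1 was above the controls with many other compounds. Of all 38 compound arrays, 24 lay above the highest control for Hmox1, and 0.949% of probes had as many arrays above their controls. For Abcc4, an exporter of organic anions, 17 did, where 4.37% of probes had as many or more, and for Osgin1 16 did, where 5.42% had. Downward, 17 of 38 arrays lay below every control for Gpx1, where 5.73% of probes had as many, and 11 for Nfe2l2, where 17.5% had as many. Over all probes the median was 4 arrays above and 4 below. The controls lay at positions A and B of their chips and most compounds at C to F. The part of position in these counts was not tested.

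Each antioxidant is also given by its own array. Resveratrol, a plant polyphenol, had 10 of 30 genes above every control, where 9.82% of its probes were, among them Osgin1 (0.83 above the control mean), Txnrd1 (0.75), Srxn1 (0.68) and Gsr (0.68). Against the 7 controls of chips 1 to 5 these were 1.00, 0.38, 0.88 and 0.23, and against the control of its own chip 0.23, 0.16, 0.29 and 0.02. The first MitoPBN array, of a spin trap directed to mitochondria, had 8 above, where 18.2% of its probes were, and 5 below, where 22.3% were. The second had 3 above, where 12.5% were, and 2 below, where 17% were. Decyclubiquinone had 6 above, where 6.03% of its probes were, with Blvrb at 0.70 and Gclm at 0.57. Citicoline had 1 above, Hmox1, where 7.01% were. Ethyl ferulate had 1 above, where 16.1% were, and 6 below, where 12.7% were.

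The MitoPBN pair disagreed in size. Osgin1 read 7.33 on the first array and 6.34 on the second, Srxn1 10.65 and 9.63, and Gsta3 7.30 and 6.11. The first array was higher for all 3, with Gsta3 1.18 apart, the widest gap of the 30 genes. The median gap was 0.21, against 0.10 for the Z-VAD-FMK pair. The arrays lay on chips 2 and 3, the labels do not say how MitoPBN2 relates to MitoPBN, and microglia markers had a median difference from the control mean of -1.25 on the first and 0.08 on the second. The part of these in the gap was not tested.

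Single compounds have 1 array each and allow no test. Of 1140 pairs of a gene and an array, 35 lay outside the range of the 10 controls with a difference from their mean of at least 1 on the log2 scale, where 3.87% of all pairs of a probe and an array did. The 35 made up 3.07% of the pairs, near the background. Of these, 23 were higher (2.02%, where 1.61% of all pairs were) and 12 lower (1.05%, where 2.26% were). The 35 pairs came from 17 arrays, and the 23 higher ones from 10. Osgin1 made 7 of the higher ones and Srxn1 6. Gsr and Txnrd1 made 4 of the lower ones each, all on chips 6 to 8. On 3 of these, FK-506, memantine and mifepristone, Txnrd1 was not detected, and it was at least 1.90-fold, 2.06-fold and 1.56-fold lower than the control mean. Against the 3 controls of those chips alone the differences of Gsr were smaller, between -0.46 (methotrexate) and -0.17 (benzamide). Txnrd1 was then at -0.15 with simvastatin, at least 1.05-fold lower with FK-506 and at least 1.14-fold lower with memantine, and no bound can be given for mifepristone. With median scaling in place of quantile normalisation 96 pairs met the rule, or 8.42%, where 7.49% of all pairs did. Of these 36 were higher (3.16%, where 1.27% of all pairs were) and 60 lower (5.26%, where 6.22% were).

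**Figure D4:**
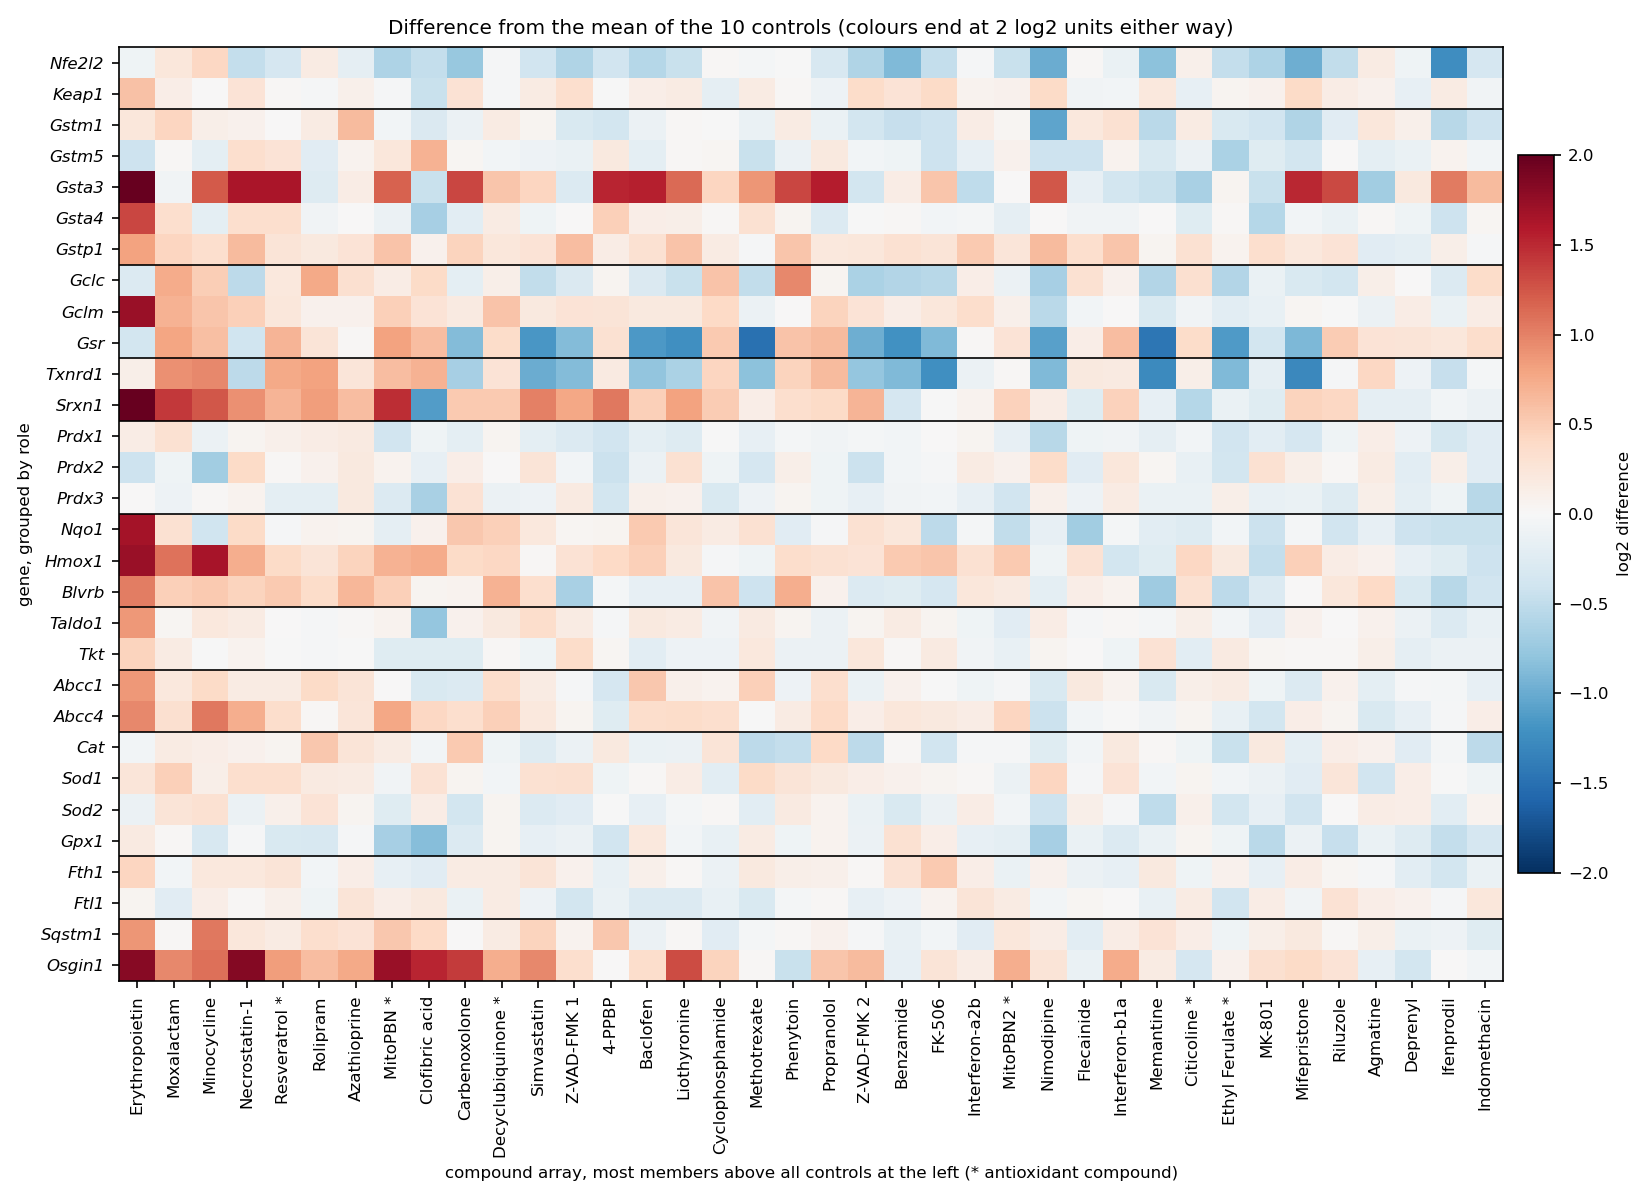
Log2 difference from the mean of the 10 controls, as colour, for the 30 genes (rows, by role) on the 38 compound arrays (columns, those with most genes above all controls at the left). The erythropoietin column at the left has 17 genes above every control, and Srxn1 (2.57) and Gsta3 (3.08) exceed the end of the colour scale there.

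The erythropoietin array had more of the 30 genes above every control than any other array. Erythropoietin is the hormone of red cell formation and is also studied for protection of neurons, and the labels give it a ratio of 1.38, in neither class. On this array 17 of 30 genes lay above every control (56.7%), where 14.3% of probes did, and 2 lay below, where 10.4% did. Srxn1 read 11.73, against 8.40 to 9.79 in the controls. The difference was 2.57, a level 5.93-fold that of the control mean, and 2.10 against the 3 controls of its own chips. The other 2 probes of Srxn1 gave 2.43 and 2.11.

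Of the 5 glutathione S-transferases, Gsta3, Gsta4 and Gstp1 (12.39, difference 0.81) lay above every control, Gstm1 (12.60) within them and Gstm5 (10.09, -0.42) below. Gstm1 lay above the 3 controls of chips 6 to 8 (12.17 to 12.38). Gsta3 read 9.20, against 5.39 to 7.78 (difference 3.08), and near-identical glutathione S-transferase genes may share its probe. Gsta4 read 12.93, against 11.38 to 11.85 (1.34). Nqo1 read 8.34, against 6.13 to 7.18 (1.66). The values of Gsta3, Gsta4 and Nqo1 are the highest of the 48 arrays. Beside Gstm5, the peroxiredoxin gene Prdx2 lay below every control (6.09, -0.42).

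Of the 3 genes of glutathione synthesis and recycling, Gclm lay above every control, reading 10.72 against 8.75 to 9.23 (difference 1.73). Gsr, at 8.06, lay within the 10 controls but above the 3 controls of chips 6 to 8 (7.26 to 7.49). Gclc was not detected on this array. Hmox1 read 12.05, against 10 to 10.56 (1.72), and Blvrb, which acts after it in heme breakdown, 7.88 against 6.37 to 7.37 (1.02). Osgin1 read 7.43, against 4.91 to 6.20 (1.82). The enzymes Taldo1 and Tkt of the pentose phosphate pathway were above every control by smaller amounts, at 0.86 and 0.45 over the control mean.

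Of the regulators, Nfe2l2 read 7.93, within the 10 controls (difference -0.08) but above the 3 controls of chips 6 to 8 (7.49 to 7.83). Keap1 read 9.67 (0.59), with 0.64 and 0.74 from its other 2 probes, and was above every control. Of the 58 other pathway genes, 18 lay above every control and 7 below. The highest by difference were Gsta2 (1.85), Bach1 (1.50), whose protein represses Hmox1, Aldh3a1 (1.45) and Cbr3 (1.21). Against the 3 controls of chips 6 to 8 these differences were 2.42, 1.46, 1.61 and 1.17. Bach1 and Gsta2 were higher still on other arrays, from the mean of the 10 controls. Bach1 was at 1.87 with benzamide and 1.78 with baclofen, and Gsta2 at 4.04 with 4-PPBP and 1.93 with nimodipine. Below the controls were the glutaredoxin genes Glrx, not detected on this array and at least 3-fold lower than the control mean, and Glrx3 (-1.67), and the methionine sulfoxide reductase gene Msrb1 (-1.10). Against the controls of chips 6 to 8 Glrx3 was at -0.34, Msrb1 at -0.39 and Glrx, by its undetected signal, at -0.34. Other arrays of those chips were as low. Glrx read 5.27 here and 5.27 with ethyl ferulate, not detected on either. From the mean of the 10 controls Glrx3 was at -1.73 with baclofen and Msrb1 at -1.50 with liothyronine.

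Cell markers on the erythropoietin array lay mostly within the controls, with 0 of 18 neuron markers above and 1 below, 0 of 13 astrocyte markers above and 1 below, 1 of 8 microglia markers above, and 2 of 8 oligodendrocyte lineage markers below. No erythroid marker was measured. Against the 3 controls on chips 6 to 8, 25 of 30 genes lay above, where 25% of probes did.

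**Figure D5:**
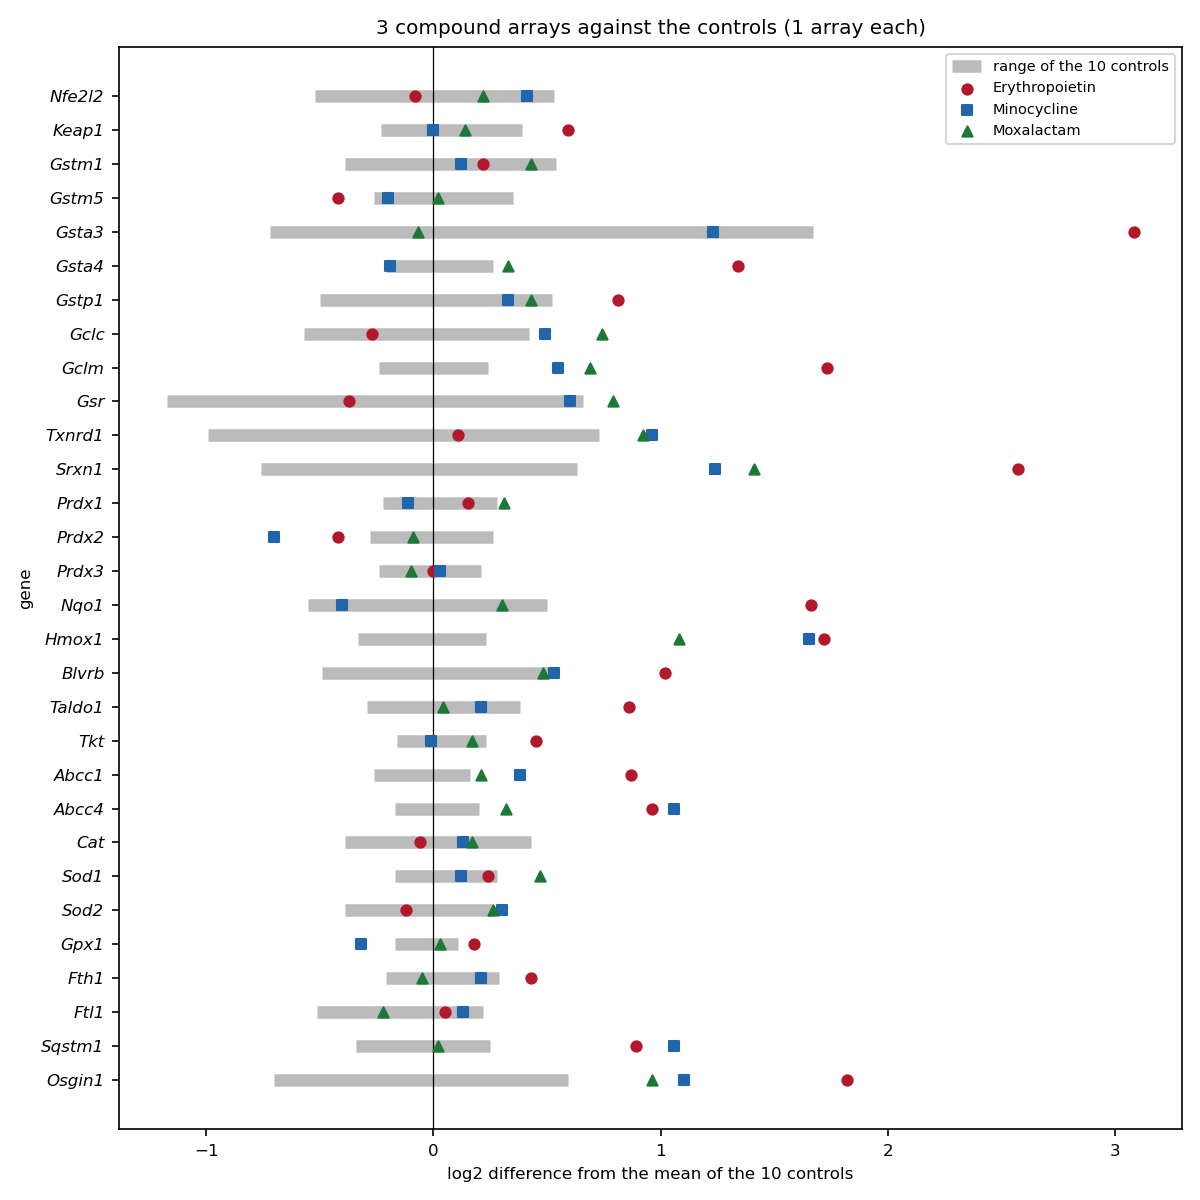
Log2 difference from the mean of the 10 controls (horizontal axis) for each gene (vertical axis) on the erythropoietin, minocycline and moxalactam arrays, with grey bars for the range of the controls. Erythropoietin lies to the right of the bar for 17 genes, moxalactam for 13 and minocycline for 11.

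The antibiotics moxalactam, a beta-lactam, and minocycline, a tetracycline, came next by number of genes above every control. Moxalactam had 13 of 30 above every control and 0 below, where 5.18% of its probes were above and 6.52% below. Srxn1 read 10.57 (1.41 above the control mean) and Hmox1 11.40 (1.08). Of the neuron markers 0 of 18 lay above and 2 below every control, and of the astrocyte markers 0 of 13 above and 1 below.

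Minocycline had 11 above, where 13.9% of its probes were, and 2 below, where 15.5% were. Hmox1 read 11.98 (1.65), Srxn1 10.40 (1.24) and Osgin1 6.70 (1.10). The autophagy adaptor Sqstm1, which binds Keap1, read 11.74 (1.06) and Abcc4 9.28 (1.06), the highest of the 48 arrays for both. Nqo1 read 6.28, within the controls. Of the other pathway genes the cystine transporter subunits Slc3a2 (2.07) and Slc7a11 (1.49) were above every control. On this array 6 of 8 oligodendrocyte lineage markers, 5 of 18 neuron markers, 3 of 13 astrocyte markers, 3 of 7 dividing cell markers and 2 of 8 microglia markers lay below every control and 0 above, and their part was not tested.

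Necrostatin-1, an inhibitor of the necroptosis kinase RIPK1, had 10 genes above every control, where 23.3% of its probes were, with Osgin1 at 7.43 (1.83). On this array 9 of 13 astrocyte markers, 5 of 8 oligodendrocyte lineage markers and 4 of 18 neuron markers lay above every control. Below every control were 7 of 7 dividing cell markers and 1 of 13 astrocyte markers, where 19.2% of its probes were. The part of these markers was not tested. The arrays of carbenoxolone (7.01), clofibric acid (7.14) and liothyronine (6.91) were above the controls for Osgin1 by at least 1 log2 unit too. On the clofibric acid array Srxn1 was lowest of all 48 arrays at 8.05 (-1.11), so Osgin1 and Srxn1 were apart there.

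Srxn1, chosen after its values were seen as the gene with the widest range among those detected on all arrays, was set against the other 29 genes over compounds, within each set of chips, with repeat arrays averaged. Over 14 compounds on chips 6 to 8, 11 of 29 Pearson correlations passed after adjustment over all 58 relations, all positive, and 3 of 29 rank correlations did. The smallest r that passed was 0.685, which 44.8% of the genes and 0.286% of all probes reached, and the median r was 0.573 over the genes and 0.0177 over all probes. Osgin1 had r = 0.811 (permutation p = 3e-05, adjusted p = 0.00174) and rho = 0.917 (adjusted p = 0.00174 by permutation), and r = 0.772 without erythropoietin and benzamide, the 2 compounds farthest from the median of Srxn1. Gclm had r = 0.875 (adjusted permutation p = 0.0204), rho = 0.704 (adjusted permutation p = 0.0770) and r = 0.716 without those 2. All 11 correlations that passed were smaller without those 2, between 0.773 (Blvrb, from 0.869) and 0.356 (Sqstm1, from 0.809). Gsta3 fell from 0.727 to 0.363, Gsr from 0.685 to 0.458 and Txnrd1 from 0.790 to 0.527. The relations of Gsta3 and Sqstm1 thus rest on those samples. The share of 44.8% and the median of 0.573 were taken with both compounds included.

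Over 22 compounds on chips 1 to 5, 3 of 29 Pearson correlations passed, all positive, and 0 of 29 rank correlations. The smallest r that passed was 0.545, which 10.3% of the genes and 1.93% of all probes reached, with a median r of 0.357 and 0.0293. Gclm had r = 0.545 (permutation p = 0.00887, adjusted p = 0.0367), rho = 0.578 (adjusted permutation p = 0.0770) and r = 0.606 without clofibric acid and moxalactam. Gsta4 (r = 0.628) and Taldo1 (r = 0.585) passed too, at 0.413 and 0.327 without those 2, and their rho did not pass (adjusted permutation p = 0.0995 and 0.162). All of these arrays share 1 normalisation and the compounds share chips.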

How the data were processed

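The deposited signals are linear intensities, the mean bead intensity of each probe, made with BeadStudio per the submitters' processing notes (its version is not given in the sources used here), and per the file headers a detection p-value follows each. The deposited series matrix holds each intensity less a constant for that array (32.3 to 111, 8 values off by more than 0.1), with column medians of 3.79 to 14.6. Every column was matched to a sample.

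Intensities of 46632 probes were background corrected with normexp (limma 3.58.1, nec, offset 16), quantile normalised and put on the log2 scale in R 4.3.3 with the data.table package (1.17.8). The 17815 probes with detection p under 0.01 on at least 6 arrays were tested. Symbols come from GEO's platform annotation, where 29976 probes carry 1, 10 several and 16646 none. Of the 30 symbols used, 30 are current. Comparisons used lmFit and eBayes with two-sided p-values adjusted (Benjamini-Hochberg, threshold 0.05) over all probes tested, with the arrays of 1 compound averaged. Correlations used 100000 permutations (Python 3.11.15, numpy 2.4.6, scipy 1.17.1, pandas 2.3.3), and figures matplotlib 3.10.9. Precision is limited by the number of arrays.

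The genes named are all members, every member past the threshold, up to 4 other pathway genes by smallest p, and for single compounds members outside the 10 controls by the log2 difference given in the report. Other members are named with values chosen after they were seen. A gene not detected on an array is given as a bound against the lowest detected signal there. The members and lists were chosen with earlier results of these data known. On simulated data with 67 genes changed by 1 log2 unit, 68.7% were recovered for 4 antagonists against 10 controls. At a change of 0.5, 22.4% were recovered (9 false calls over 17815 probes). The simulated noise was independent between probes and arrays and held no chip difference, so these rates may not hold for the real arrays. The mock and vehicle replicate numbers did not pair the samples, with correlations of -0.142 to 0.148. Alternatives in background correction, scaling, filter, chip, position, probe and samples were tried.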

Additional observations from a re-analysis of the deposited data

Results flagged for a closer look

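Over 180 sets of a gene and a group of 4 to 10 samples, 5 held a sample far from the others by Dixon's limit, and chance flags about 1 in 20 groups (9 of 180). Among the antioxidants, ethyl ferulate lay low for Gsr (7.29, the next value being 8.80) and for the ferritin light chain gene Ftl1 (12.96, next 13.43), and it is the 1 antioxidant array on chips 6 to 8, where both genes were lower than on chips 1 to 5 over all arrays (-1.42 and -0.28, limma adjusted p = 4.11e-21 and 1.67e-06). Among the other protective compounds, necrostatin-1 lay high for Abcc4 (8.95, next 8.60). Among the vehicle controls, number 1 lay high for Sod1 (11.52, next 11.27) and number 3 low for Abcc1 (4.66, next 4.94), a gene not detected on any control.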

How the results depend on the processing

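The count of members called by the main test and its alternatives was as follows. For antagonists against controls (2 called) it was 6 with chip as a block and with the chip set as a term, 0 against vehicle controls only, 5 against mock controls only, and 2 to 3 leaving out each antagonist in turn. Nfe2l2 passed in 14 of 15 alternatives (-1.07 to -0.65, adjusted p from 0.00088 to 0.0541) and Gpx1 in 13 of 15 (-0.68 to -0.35). For antioxidants (0 called) it was 1, Hmox1, with the MitoPBN arrays counted separately, whether with no chip term, with chip as a block or with the chip set as a term. It was 0 with the chip set as a term and those arrays averaged, and with chip as a block and either array alone, alternatives chosen after seeing the data. It was 1, Gsta3 (1.35), for DMSO compounds against vehicle controls, and 0 leaving out each compound in turn. Over its 19 alternatives the adjusted p of Hmox1 ran from 0.0217 to 0.900. For the protective class (1 called, Osgin1) it was 0 under median scaling, with no filter, over probes detected on all arrays (which leave Osgin1 out), with chip as a block, with position as a covariate and without the antagonists, and under median scaling Abcc4 (-0.05) and Sod1 (-0.04) reversed. For antagonists against other protective compounds (0 called) it was 1 over probes detected on all 48 arrays, 3 with the chip set as a term, 2 with 3 groups in 1 fit, and 0 leaving out each antagonist. For vehicle against mock (0 called) it was 4 with chip as a block, 7 with position as a covariate and 0 to 2 leaving out each control. The replicate block called 0 members, as without it, and the numbers pair nothing here. For the slope it was 0 throughout. For single compounds (35 pairs) it was 96 under median scaling. The cause of these changes was not tested, apart from fewer samples or probes.

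Median scaling moved the median of all probes by more than 0.1, to -0.27 for antagonists and -0.22 for the protective class (main -0.05 and -0.01), where 28 and 26 of 30 members were negative and the members' medians were -0.40 and -0.15. It moved it from 0.06 to -0.11 for vehicle against mock and from 0.00 to -0.20 for the slope, where 23 and 24 of 30 members were negative. Of the calls over all probes with antagonists, 23.3% were then higher in place of 51.9%, and in the protective class 0.780% in place of 55.4%. It raised the median SD of the members over the controls from 0.216 to 0.394.

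All probes called ran from 1699 to 5987 for antagonists (main 4180), 0 to 2350 for antioxidants (64), 0 to 2243 for the protective class (1363), 2 to 1254 for antagonists against other protective compounds (657) and 0 to 4633 for vehicle against mock (0). Of the results for single genes, medians, probe counts and single compounds, 487 stayed the same, 18 newly passed, 8 no longer passed, 52 moved and 2 reversed. For fitted genes the same means direction and call. For medians it means a shift under the SD of the members' differences, and for single compounds one under the control SD. For counts it means a change within a fixed ratio. Position could not be fitted for antagonists or for antioxidants against controls. Signals near background limit Gclc, Abcc1 and Cat.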
